A study of Arabidopsis thaliana with 4 samples.

Results

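TAS1A (AT2G27400), TAS1B (AT1G50055), TAS1C (AT2G39675) and TAS2 (AT2G39681) are non-coding loci whose transcripts are cut under the guidance of miR173, the microRNA made from MIR173 (AT3G23125). These 5 loci were taken by their locus identifiers, out of 33602 in a table of small RNA reads per locus from Arabidopsis thaliana, and all 5 held reads in every library. Small RNA below 200 nt came from aerial tissue of plants 18 days old. The plants were grown at 22 °C with 16 h of light and 8 h of dark. There was 1 library for each of 4 genotypes. The triple mutant was rdr6-11 ein5-1 ski2-3, the double mutant was ein5-1 ski2-3, the third mutant line was rdr6-11, and Col-0 was the wild type. ein5-1 affects EIN5 (also called XRN4), a cytoplasmic exonuclease that degrades RNA from the 5′ end. ski2-3 affects SKI2, a helicase that feeds RNA to the cytoplasmic exosome for decay from the 3′ end. rdr6-11 affects RDR6, an RNA-dependent RNA polymerase. The double and triple mutants share both decay mutations, and rdr6-11 and the triple mutant share the RDR6 mutation.

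In this pathway miR173, bound by AGO1, cuts the primary TAS transcript, RDR6 with SGS3 copies the 3′ piece into double-stranded RNA, and DCL4 cuts that duplex stepwise into phased trans-acting siRNAs. The siRNAs then act on other transcripts as miRNAs do. Those of TAS1 are known for targeting HEAT-INDUCED TAS1 TARGET (HTT) genes, and those of TAS2 for targeting pentatricopeptide repeat (PPR) genes, which encode proteins that bind RNA in organelles. A trigger of 22 nt is characteristic of transcripts that enter this route after a single cut.

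The trigger and its sites are shown because the comparisons below set the trigger beside the loci it cuts. Sequences were read from the RefSeq copy of the TAIR10.1 genome through its annotation of MIR173 and by matching miR173 to the TAS loci. The mature trigger comes from the plus strand of chr3:8236161-8236182, and capitals mark its seed, bases 2 to 8.
ath-miR173-5p: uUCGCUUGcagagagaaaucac
The annotated partner strand of the hairpin lies at chr3:8236227-8236247, with the same bases in capitals.
ath-miR173-3p: uGAUUCUCuguguaagcgaaa
The best match to the complement of miR173-5p in each TAS transcript is given next, 5′ to 3′, all on the minus strand, with capitals for bases that form Watson-Crick pairs with miR173-5p. The sites lie at chr2:11722081-11722102 for TAS1A, chr1:18549660-18549681 for TAS1B, chr2:16537890-16537911 for TAS1C and chr2:16539991-16540012 for TAS2, each within the single exon of a non-coding RNA.
TAS1A: GUGAUUUuUCUCUaCAAGCGAA
TAS1B: GUGAUUUuUCUCaaCAAGCGAA
TAS1C: GUGAUUUuUCUCUaCAAGCGAA
TAS2: GUGAUUUuUCUCUcCAAGCGAA

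Counted from the 5′ end of miR173-5p, position 9 was mismatched at all 4 sites and position 15 faced a U as a G:U wobble, which is in lower case too. TAS1B had a further mismatch at position 10, so 20 of 22 bases formed Watson-Crick pairs at TAS1A, TAS1C and TAS2 and 19 at TAS1B. The next best match within these transcripts had at least 8 bases without such a pair. The site began at base 367 of TAS1A and of TAS1C, base 362 of TAS1B and base 406 of TAS2. A cut opposite bases 10 and 11 of miR173-5p leaves room for 26 full steps of 21 bases downstream in TAS1A, 22 in TAS1B, and 29 each in TAS1C and TAS2. These steps, called registers and named 3′D1 onward, are positions computed from the sequence. The table holds no read sizes, strands or positions, so they could not be set against reads.

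**Figure D1:**
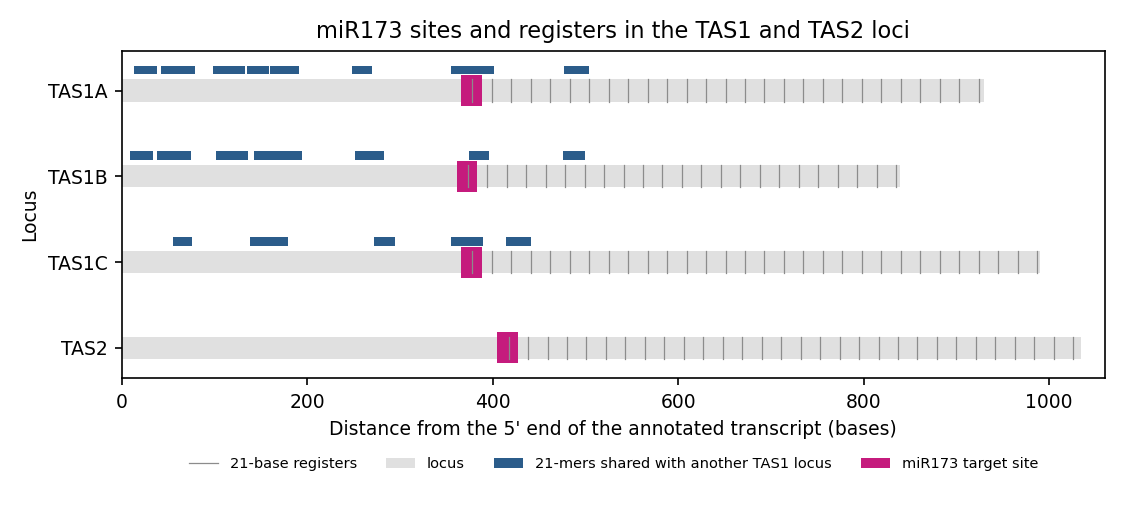
Annotated transcripts of TAS1A, TAS1B, TAS1C and TAS2 drawn to scale, with distance from the 5′ end in bases on the x axis. Pink marks the miR173 site, grey lines the 21-base registers downstream of it, and blue the stretches covered by 21-mers shared with another TAS1 locus, of which TAS2 has 0.

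Most 21-mers of the 4 TAS loci tell the loci apart, but the share of reads that came from shared 21-mers is not known. TAS1A and TAS1B were the most alike, with 84.5% identity over 811 aligned bases, against 75.4% for TAS1B and TAS1C and 71.3% for TAS1A and TAS1C. TAS2 was 63.6% to 69.2% identical to the TAS1 loci. Of the 21-mers of each locus, 91.5% in TAS1A, 90.5% in TAS1B, 94.9% in TAS1C and 99.5% in TAS2 occur once in the nuclear genome. Shared 21-mers made up 8.46% of those in TAS1A, 9.16% in TAS1B and 4.74% in TAS1C. Reads from them can be split or lost between loci in counting, so values of the 3 TAS1 loci are uncertain in this respect. All 3 TAS1 loci shared 1 computed duplex, 3′D6 in TAS1A and TAS1B and 3′D3 in TAS1C, and both its strands are printed because they are the registers these loci have in common.
TAS1 shared register (+): uucuaaguccaacauagcgua
TAS1 shared register (-): cgcuauguuggacuuagaaua
The register of TAS2 that matched 3 listed PPR genes with 1 mismatch, 3′D6(-), is printed for comparison.
TAS2 3′D6(-): auaucccauuucuaccaucug

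The libraries held 877589 reads (triple mutant), 621515 (double mutant), 878632 (rdr6-11) and 808276 (Col-0) in the table, and counts were scaled to these sums as reads per 1000000 (RPM). EIN5, SKI2 and RDR6 held at most 4 reads each in any library, too few to check the genotype labels. Each of 4 leaf genes (RBCS1A, CAB3, RCA and LHCA4) had reads in every library, summing to 16391 RPM in the triple mutant, 1623 in the double mutant, 6509 in rdr6-11 plants and 2119 in Col-0, of which LHCA4 gave the most in each. The 3 root genes (PYK10, BGLU22 and SCR) summed to between 19.3 and 53.1 RPM, and the 4 flower genes to between 0 and 17.7 RPM, with AG and SEP3 at 0 in every library and BGLU22 and AP3 at 0 in all but the double mutant, where PI had 10 reads. Organelle loci took 28.3% of reads in the triple mutant and 22.1% in rdr6-11, against 10.5% in the double mutant and 10.04% in Col-0. The part of the organelle loci and of the leaf genes in the folds below was not tested, other than by scaling without organelle, rRNA and tRNA loci. Dividing counts by the authors' RPKM gives the locus lengths they used, which differed between the pair rdr6-11 and triple mutant and the pair double mutant and Col-0 at 245 of 9239 loci with reads in every library. At the 5 loci described here the lengths were the same in all libraries, but the 2 pairs cannot be told apart from the RDR6 genotype. With 1 library per genotype no p-value is given, and brackets after a value hold exact 95% intervals that cover counting error only. A lower share of siRNA in the tissue and fewer cells making it cannot be told apart in these libraries.

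Col-0 made small RNA from all 4 TAS loci at high levels, and every mutant library held less. TAS2 had 153 reads in the triple mutant, 4753 in the double mutant, 26 in rdr6-11 plants and 20441 in Col-0, which is 174, 7647, 29.6 and 25290 RPM in that order. TAS1C had 128 reads in the triple mutant, 3900 in the double mutant, 32 in rdr6-11 plants and 12886 in Col-0. TAS1A had 36 reads in the triple mutant, 2154 in the double mutant, 19 in rdr6-11 plants and 9421 in Col-0. At each of these loci the libraries stood in one order, Col-0 first, then the double mutant, and far below them the triple mutant and rdr6-11. TAS1B had 29 reads in the triple mutant, 1606 in the double mutant, 2 in rdr6-11 plants and 4691 in Col-0, again in that order. Together the 4 loci took 0.0394% (0.0354 to 0.0438) of the triple mutant's reads, 1.997% (1.96 to 2.03) of the double mutant's, 0.00899% (0.00712 to 0.0112) of those of rdr6-11 and 5.87% (5.82 to 5.92) of those of Col-0. In Col-0 TAS2 was the locus with the 6th highest count of all 33602, and TAS1C the 11th.

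**Figure D2:**
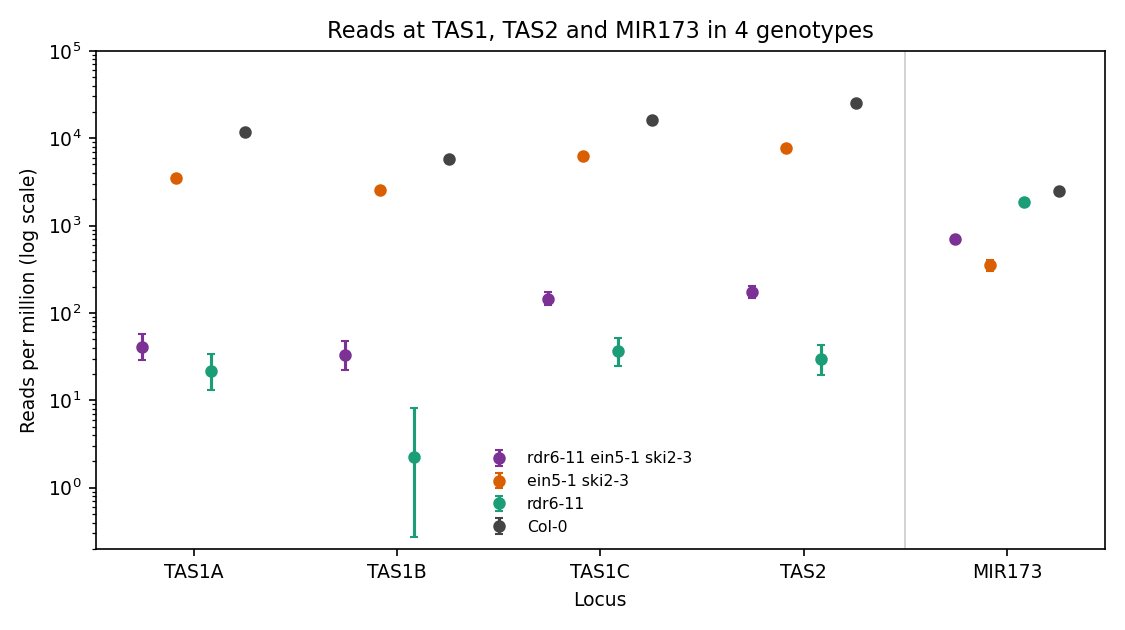
RPM on a log scale for each locus (x axis) in 4 libraries, 1 per genotype, with exact Poisson 95% intervals as bars. The 4 TAS loci lie at 174 RPM or less in the triple mutant and rdr6-11 and at 2584 RPM or more in the double mutant and Col-0, while MIR173 stays between 349 and 2478 RPM.

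MIR173 did not follow that order. It had 616 reads in the triple mutant, 217 in the double mutant, 1616 in rdr6-11 plants and 2003 in Col-0, which is 702 RPM (648 to 760), 349 RPM (304 to 399), 1839 RPM (1751 to 1931) and 2478 RPM (2371 to 2589). The double mutant was thus lowest for the trigger, although it was second only to Col-0 for the TAS loci. Among the 178 miRNA genes of the table MIR173 stood 27th by reads in the triple mutant, 39th in the double mutant, and 16th in both rdr6-11 and Col-0. The first 21 bases of miR173-5p occur once in the nuclear genome, so its reads are not shared with a copy. No annotated gene overlaps MIR173.

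Per length the TAS loci were unequal sources, compared here as RPM per kilobase of annotated locus. In the triple mutant TAS2 (169, 143 to 198) and TAS1C (147, 123 to 175) had overlapping intervals, as did TAS1A (44.1, 30.9 to 61.1) and TAS1B (39.4, 26.4 to 56.6), and the first pair lay above the second. In the double mutant the level was 7396 RPM per kilobase at TAS2, 6338 at TAS1C, 3727 at TAS1A and 3080 at TAS1B. In rdr6-11 TAS1C (36.8, 25.2 to 51.9), TAS2 (28.6, 18.7 to 41.9) and TAS1A (23.3, 14.0 to 36.3) overlapped, and TAS1B (2.71, 0.329 to 9.80) lay below them. Col-0 had 24458 RPM per kilobase at TAS2, 16104 at TAS1C, 12533 at TAS1A and 6917 at TAS1B, the order of the double mutant. In these 2 libraries the counting intervals of neighbours in that order did not overlap.

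The first comparison set the double mutant against Col-0, to ask how reads differed with EIN5 and SKI2 mutated where RDR6 was intact. All 4 TAS loci were lower in the double mutant, TAS1A 3.36-fold (3.21 to 3.53), TAS2 3.31-fold (3.20 to 3.41), TAS1C 2.54-fold (2.45 to 2.63) and TAS1B 2.25-fold (2.12 to 2.38). The intervals of TAS1A and TAS2 overlapped, and those of TAS1B and TAS1C lay apart from them and from each other. The trigger was lower by more than any of its targets, 349 RPM in the double mutant against 2478 RPM in Col-0, or 7.10-fold (6.17 to 8.20). A locus was called when its RPM differed at least 4-fold, with 1 read added, and the library with more held 50 reads or over. By that rule MIR173 was the only one of the 5 loci called, beside a background of 9.04% called lower (and 26.8% called higher) among the 653 loci that reached 50 reads in either of the libraries. With TMM scaling TAS1A and TAS2 were called lower as well.

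Many other miRNA genes were lower in the double mutant as well, but their summed share of reads was not. All miRNA genes together took 53.7% of reads in the double mutant and 52.3% in Col-0. The most read of them, MIR159b and MIR396a, had log2 folds of 0.24 and 0.58. Of 90 miRNA genes that reached 50 reads, MIR173 included, 24 (26.7%) were called lower and 3 higher. Over all 653 loci 9.04% were called lower and 26.8% higher. The median log2 fold of the 90 was -0.94, against -0.45 over all 653 loci. MIR173, at -2.82, stood 12th from the lowest of the 90. The gene for miR161, which also targets PPR transcripts, was 4.50-fold lower (4.16 to 4.88), at 704 reads in the double mutant and 4122 in Col-0. MIR390a and MIR390b, whose miRNA triggers TAS3, were higher, 2.09-fold (1.94 to 2.26) and 2.16-fold (1.99 to 2.33), and they share a mature sequence, so that counting could split their reads. TAS3A (AT3G17185) itself was 3.88-fold lower (3.69 to 4.07). TAS3b and AT5G57735, a further TAS3 locus, had 16 and 26 reads in the double mutant and 98 and 129 in Col-0. AT3G25795, known as TAS4, went the other way, with 1080 reads in the double mutant and 8 in Col-0 (176-fold, 88.8 to 408), and it had 0 reads in the triple mutant and 1 in rdr6-11. Its trigger MIR828 had 20 reads in the double mutant, 2 in Col-0 and 0 in the other 2 libraries. Whether trigger levels bear on the folds of the TAS loci was not tested. The folds of MIR393a, 0.834 (0.683 to 1.02), and MIR393b, 0.989 (0.895 to 1.09), had intervals that include 1.

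**Figure D3:**
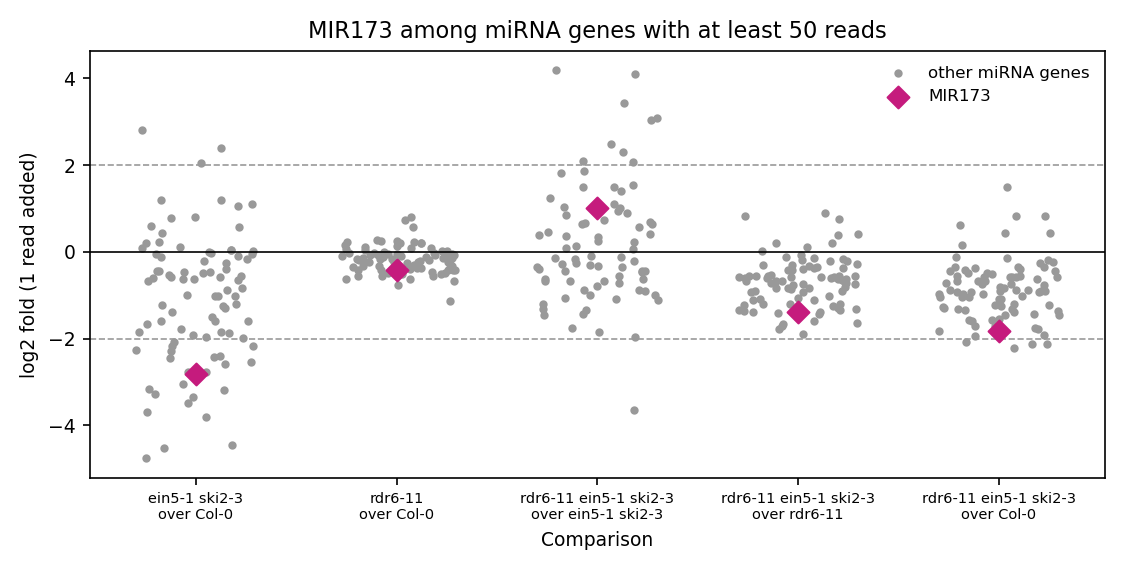
log2 fold with 1 read added, for miRNA genes that reached 50 reads in the libraries compared (grey), in the 5 comparisons on the x axis, spread sideways only for visibility, with MIR173 as a pink diamond. Dashed lines mark 4-fold. MIR173 lies at -2.82 in the first comparison and at -0.43 in the second.

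rdr6-11 against Col-0 asked how reads differed with RDR6 mutated where both decay routes were intact. Summed reads of the 4 TAS loci were 79 in rdr6-11 and 47439 in Col-0, a 653-fold difference (524 to 825). The fold was 855 (583 to 1309) at TAS2, 539 (345 to 896) at TAS1A, 438 (310 to 640) at TAS1C and 2550 (705 to 21060) at TAS1B, the last resting on 2 reads in rdr6-11. All 4 were called lower, against 3.9% of the 564 loci that reached 50 reads, while a further 1.95% were called higher. MIR173 was 1.35-fold lower in rdr6-11 (1.26 to 1.44) and was not called. Of 88 miRNA genes 0 were called in either direction, and their median log2 fold was -0.17, against -0.43 for MIR173.

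**Figure D4:**
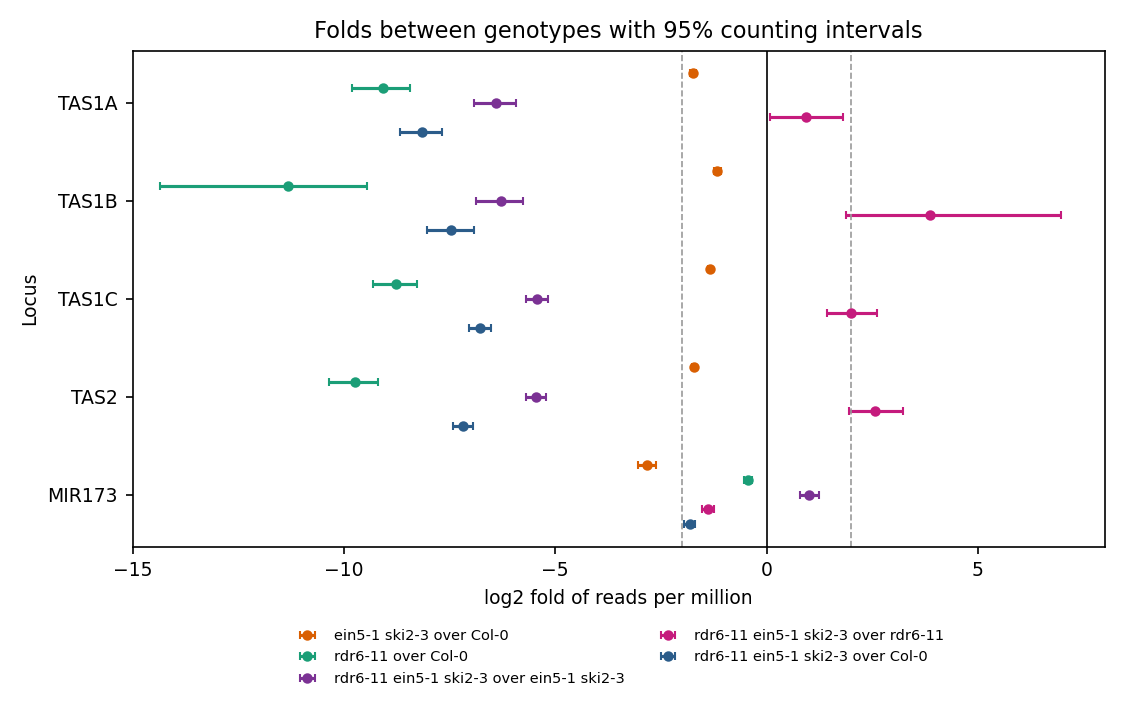
log2 fold of RPM, without added reads, for the 5 loci in 5 comparisons, with exact conditional binomial 95% intervals as bars and dashed lines at 4-fold. The triple mutant lies above rdr6-11 at the 4 TAS loci and below it at MIR173. Comparisons that share a library are not independent.

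The triple mutant against the double mutant put the same question where both decay routes were impaired. Summed TAS1 and TAS2 reads were 346 in the triple mutant and 12413 in the double mutant, 50.7-fold lower (45.5 to 56.5). TAS1A was 84.5-fold lower (60.8 to 121), TAS1B 78.2-fold (54.2 to 117), TAS2 43.9-fold (37.3 to 51.9) and TAS1C 43.0-fold (36.1 to 51.7). All 4 were called lower, against 14.3% of 736 loci, while a further 13.3% were called higher. MIR173 went the other way, 702 RPM in the triple mutant against 349 RPM in the double mutant, a fold of 2.01 (1.72 to 2.36) that was not called. It was 61st from the lowest of 80 miRNA genes, whose median log2 fold was -0.11. Scaled to reads at the other miRNA genes, the ratio of the triple to the double mutant became 0.0340 for the TAS sum and 3.46 for MIR173. That scale rests mostly on MIR159b and MIR396a and is not a measure of miRNA genes in general. MIR159b had 132210 reads in the triple mutant and 150013 in the double mutant, and MIR396a had 39468 and 109159.

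The triple mutant against rdr6-11 set the decay mutations against intact decay where RDR6 was mutated. The triple mutant held more reads at TAS1C, with 128 in the triple mutant and 32 in rdr6-11, 4.00-fold higher (2.70 to 6.10), and at TAS2, with 153 and 26 reads in the same order, 5.89-fold higher (3.87 to 9.31). TAS1A was 1.90-fold higher (1.06 to 3.501), on 36 reads in the triple mutant and 19 in rdr6-11, and TAS1B 14.5-fold higher (3.67 to 126), on 29 and 2 reads. TAS2 alone was called, against 16.4% of 718 loci called higher. TAS1C, at a log2 fold of 1.97 with 1 read added, was just short of 4-fold, and TAS1B had fewer than 50 reads. TAS1C was called when libraries were scaled to miRNA reads or without organelle, rRNA and tRNA loci. MIR173 was 2.62-fold lower in the triple mutant (2.39 to 2.88), 10th from the lowest of 85 miRNA genes, whose median log2 fold was -0.66. Against Col-0 the triple mutant was still 149-fold lower (134 to 166) for the summed TAS loci, and all 4 were called, against 5.02% of 737 loci, while MIR173 was 3.53-fold lower (3.22 to 3.87) and was not called. MIR173 was called lower in that comparison with median of ratios and with TMM scaling. Scaled to miRNA reads, the ratio of the triple mutant to Col-0 was 0.0112 for the TAS sum and 0.474 for MIR173.

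The balance of TAS reads to trigger reads differed by genotype. There were 0.562 TAS1 and TAS2 reads (0.491 to 0.642) for each MIR173 read in the triple mutant and 57.2 (50.02 to 65.7) in the double mutant. The ratio was 0.0489 (0.0385 to 0.0613) in rdr6-11 and 23.7 (22.6 to 24.8) in Col-0. This ratio does not depend on how libraries are scaled. The double mutant thus had more TAS reads per trigger read than Col-0, although it had fewer of both.

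The make-up of the TAS reads was alike in outline but not equal between genotypes. TAS2 gave 44.2% (38.9 to 49.6) of the summed reads in the triple mutant and 38.3% (37.4 to 39.2) in the double mutant. It gave 32.9% (22.7 to 44.4) in rdr6-11 and 43.1% (42.6 to 43.5) in Col-0. TAS1C gave 37.0% (31.9 to 42.3), 31.4% (30.6 to 32.2), 40.5% (29.6 to 52.1) and 27.2% (26.8 to 27.6) for the triple mutant, double mutant, rdr6-11 and Col-0. Between the double mutant and Col-0 the intervals lay apart at all 4 loci, with a larger part from TAS1B and TAS1C and a smaller part from TAS1A and TAS2 in the double mutant. TAS1A gave 10.4% (7.39 to 14.1) in the triple mutant, below its 17.4% (16.7 to 18.0) in the double mutant. Its share was 24.1% (15.1 to 35.0) in rdr6-11, also above that of the triple mutant, and 19.9% (19.5 to 20.2) in Col-0. TAS1B gave 8.38% (5.69 to 11.8) in the triple mutant and 12.9% (12.4 to 13.5) in the double mutant. It gave 2.53% (0.308 to 8.85) in rdr6-11 and 9.89% (9.62 to 10.2) in Col-0. Shares of rdr6-11 rest on 79 reads.

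**Figure D5:**
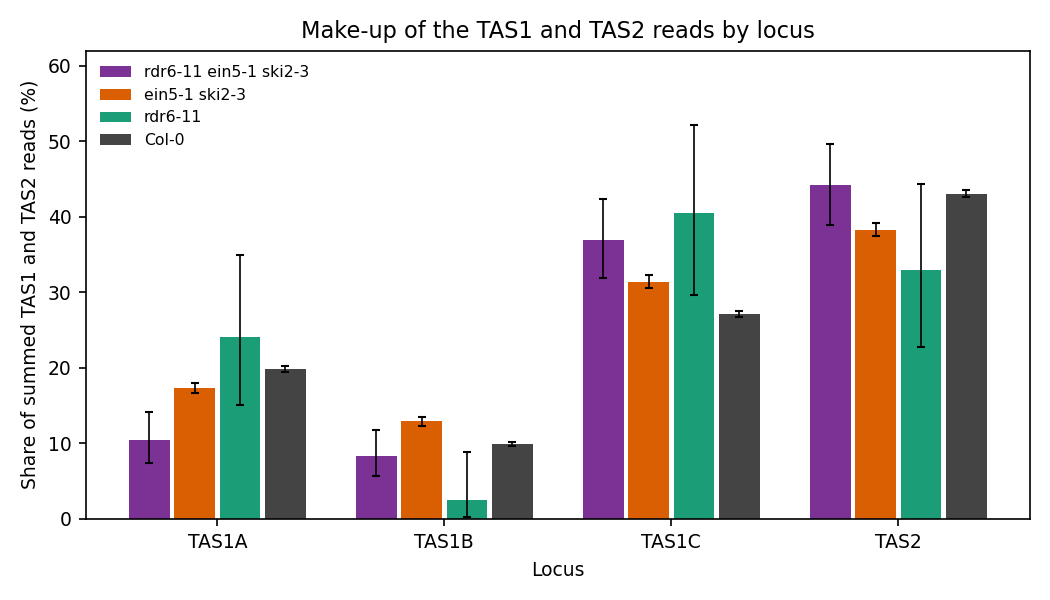
Share of the summed TAS1 and TAS2 reads (%) given by each locus in each library, with exact Clopper-Pearson 95% intervals as bars. The bar of TAS2 is the tallest in the double mutant and Col-0 with an interval apart from that of TAS1C, while the intervals of these loci overlap in the triple mutant and rdr6-11.

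Few reads were counted at the other genes around the TAS loci. Counts are per locus, so reads between loci are not seen, nor is how reads in an overlap were assigned. TAS1C and TAS2 lie 1106 bases apart, and the protein-coding genes on either side, AT2G39670 and AT2G39690, held at most 3 reads in any library. AT2G39670 overlaps the annotated end of TAS1C by 31 bases, and the last register of TAS1C lies in that overlap. The neighbours of TAS1A, AT2G27395 and AT2G27402, held at most 5 reads. TAS1B contains the annotated hairpin of MIR5636 (AT1G07613), a locus not used here, and reads from that stretch could not be told apart from other TAS1B reads.

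Of the 15 listed genes of siRNA and miRNA production, 2 reached 10 reads in any library. AGO1, which carries miR173, had 8 reads in the triple mutant, 121 in the double mutant, 1 in rdr6-11 plants and 12 in Col-0. It was called higher, 13.1-fold (7.24 to 26.1), for the double mutant over Col-0, as were 26.8% of 653 loci. For the triple over the double mutant it was called lower, 21.4-fold (10.5 to 50.6), as were 14.3% of 736 loci. DCL1, which cuts miRNA hairpins, had 17, 33, 0 and 13 reads, in the order of libraries given for AGO1, and was not called. RDR6, SGS3 and DCL4, which act on the cut TAS transcript, had at most 6 reads each. These are small RNA reads at the loci and not levels of their messages.

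Sequence matches to the known targets differed between TAS1 and TAS2. The 212 registers of the 4 loci, on both strands, were matched to the longest transcript of 27444 protein-coding genes, and 1.55% of these genes had a complement with 3 or fewer mismatches. A TAS1 register matched 4 of the 5 HTT genes at that limit, against 1.18% of all genes, and a TAS2 register matched 0 of the 5. HTT genes are listed because they are known TAS1 targets, so their TAS1 matches are no independent finding. TAS1A 3′D2(+) matched HTT2 (AT5G18040) and HTT3 (AT5G18065) with 2 mismatches each, and the plus strand of the shared TAS1 register matched HTT1 (AT4G29770), HTT2, HTT3 and HTT4 (AT4G29760) with 3. The fifth, HTT5 (AT1G51670), had no such match. The HTT genes gave almost no small RNA, with sums of 3 reads in the triple mutant, 8 in the double mutant, 3 in rdr6-11 plants and 2 in Col-0, so 0 of 5 were measured at 10 reads or more. All of these reads lay at HTT2 and HTT3.

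TAS2 registers matched 17 of the 23 listed PPR genes, against 0.401% of all genes, and TAS1 registers matched 6. The list was drawn from PPR genes known as sources of secondary siRNAs, so a match is no independent finding. TAS2 3′D6(-) matched AT1G63070, AT1G63080 and AT1G63130 with 1 mismatch each. Outside the list, TAS2 3′D9(-) matched AT1G63630, which is annotated with a PPR domain, with 0 mismatches. AT1G63130 had 0 reads in the triple mutant, 420 in the double mutant, 0 in rdr6-11 plants and 682 in Col-0, and AT1G63080 had 0, 250, 3 and 472 in the same order. An annotated miRNA gene, MIR5652, lies opposite AT1G63130, and reads of either strand cannot be told apart. At these genes at most 3 reads were left in the triple mutant and rdr6-11. The number of mismatches did not order the loss of reads. With 2 mismatches to the same register, AT1G62910 had 114 reads in the triple mutant, 691 in the double mutant, 205 in rdr6-11 plants and 1173 in Col-0, AT1G63150 had 2, 406, 0 and 574, and AT1G62914 had 0 in every library. With 3 mismatches, AT1G62590 had 196 reads in the triple mutant, 206 in the double mutant, 563 in rdr6-11 plants and 776 in Col-0, and AT5G16640 had 0, 21, 0 and 29. AT1G63330, AT1G63400 and AT1G12775, the others with 3, had 199, 121 and 25 reads in the triple mutant and 515, 382 and 17 in rdr6-11. Reads were thus kept at some of these genes and nearly absent at others with as many mismatches.

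Of the 19 PPR genes measured, 8 were called lower and 0 higher in rdr6-11 against Col-0, beside 3.9% of loci lower and 1.95% higher in the background given above. The 8 were RPF2, RPF3, AT1G62910, AT1G63070, AT1G63080, AT1G63130, AT1G63150 and AT1G12775. The list is of known secondary siRNA sources and was chosen with earlier results known. Fewer reads at these genes where RDR6 is mutated are therefore no independent finding. The triple against the double mutant gave 9 lower and 0 higher, beside 14.3% and 13.3% of loci, and AT1G12300 was called there in addition. The median log2 folds of the 19 in these comparisons were -3.48 and -3.09, against 0.02 and 0.22 over the 5402 loci that reached 10 reads in any library. In the double mutant against Col-0 only AT5G41170 was called, lower by 4.96-fold (3.82 to 6.53), beside 9.04% of loci, and the median was -0.21, against 0.25 over those loci. The triple mutant against rdr6-11 gave 1 lower, AT1G06580, with 16 reads in the triple mutant and 112 in rdr6-11, beside 0.418% of loci called lower. The triple mutant against Col-0 gave 13 lower, beside 5.02% of loci, among them AT1G06580, AT5G41170, AT1G62590, AT1G63330 and AT1G63400. Of the 15 measured genes with a TAS2 match 7 were called lower in rdr6-11 against Col-0, as was 1 of the 4 measured genes without, a split made after the values were known.

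Among 2215 other loci with at least 50 reads in all, the profile over the 4 libraries nearest to that of the summed TAS loci was TAS3A, at a distance of 0.727 on the log2 RPM scale. TAS3A had 103 reads in the triple mutant, 1995 in the double mutant, 22 in rdr6-11 plants and 10056 in Col-0, and was 4.69-fold higher (2.94 to 7.80) in the triple mutant than in rdr6-11. Next came AT5G38850, an immune receptor gene (1.33), and the PPR genes AT1G63150 (1.43), AT1G63070 (1.61) and RPF3 (AT1G62930, 1.88). Nearest to MIR173 were AT4G13495, a non-coding RNA (0.228), MIR400 (0.239), the pseudogene AT3G30685 (0.250), MIR171c (0.265) and MIR158a (0.266). MIR400 had 83 reads in the triple mutant, 28 in the double mutant, 222 in rdr6-11 plants and 224 in Col-0, the same order of libraries as for MIR173 with the last 2 close together. These likenesses rest on 4 libraries and are a description.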

How the data were processed

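The authors deposited, for each locus, a whole-number read count per library and an RPKM value (reads per kilobase of locus per 1000000 reads), per the file headers. RPKM is 0.001 where the count is 0. Per the submitters' processing notes, CASAVA 1.8.2, BWA and the TAIR9 build are listed, in roles the notes do not state. What was done about trimming, multiply mapping reads, strand and read size was not given in the sources used here. siRNA and fragments of longer RNA are counted together. Dividing counts by RPKM gave whole-number lengths of 929, 838, 989 and 1033 for TAS1A, TAS1B, TAS1C and TAS2, 1 below the TAIR10.1 annotation, and 85 for MIR173, which is annotated at 102. RPKM served only for this check and for the recovered library totals.

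Counts were scaled to column sums, at which 1 read is worth 1.14 RPM in the triple mutant and rdr6-11, 1.61 in the double mutant and 1.24 in Col-0. Folds printed as ratios, the plotted folds of the 5 loci and the log2 folds of the flagged results carry no added reads. Other log2 folds, medians and calls carry 1 read. Intervals are exact conditional binomial (folds), Clopper-Pearson (shares) and Poisson (levels). PCR copies are not independent molecules. Samples were grouped by genotype labels, and no test was made, since each group is 1 library. Locus names and sequences come from RefSeq TAIR10.1, a different build label from the authors', and all printed coordinates are TAIR10.1. Python 3.11.15, scipy 1.17.1, Biopython 1.88 and edgeR 4.0.16 (for TMM factors only) were used.

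The members and lists were chosen with earlier results of these data known. The naming rule takes all 5 loci, all members of lists of 6 or fewer, called members of longer lists, and the 5 nearest profiles to the summed TAS loci and to MIR173. Some genes outside it (DCL1, SGS3, DCL4, AT1G63630 and PPR genes with a match but no call) are named after their values were seen. List members count as measured at 10 reads in any library. Alternatives changed the scaling, the fold, the minimum and the added reads.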

Additional observations from a re-analysis of the deposited data

Results flagged for a closer look

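Folds with the decay mutations at the TAS loci had opposite directions where RDR6 was mutated and where it was intact. At each TAS locus the triple mutant had more reads than rdr6-11, whereas the double mutant had fewer than Col-0. The first log2 fold exceeded the second by 3.69 for the summed loci (2.13 against -1.56), by 2.67 at TAS1A, 5.03 at TAS1B, 3.35 at TAS1C and 4.28 at TAS2. The difference was not tested, since each genotype is 1 library, and the folds without RDR6 rest on 19 or fewer reads in rdr6-11 at TAS1A and TAS1B. The interval of the triple mutant over rdr6-11 at TAS1A had a lower limit of 1.06. Log2 shifts of -0.26 with TMM and -0.19 with median of ratios would take that limit below 1. The direction at TAS1A is therefore uncertain. In the triple mutant over rdr6-11, 16.4% of 718 loci were called higher and 0.418% lower. In the double mutant over Col-0, 26.8% of 653 loci were called higher and 9.04% lower. MIR173 was lower in both comparisons, with log2 folds of -1.39 and -2.83.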

How the results depend on the processing

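The direction of the summed TAS fold and of the MIR173 fold held in all 5 comparisons under the 6 other scalings, which shifted log2 folds by between -0.30 and 0.79. Of 30 values each, 12 summed folds and 14 MIR173 folds left their counting interval. Folds are given here as ratios. The summed TAS ratio for the double mutant over Col-0 became 0.298 with median of ratios, 0.276 with TMM, 0.330 with miRNA reads other than MIR173, and 0.324 both without organelle, rRNA and tRNA loci and without TAS loci. MIR173 in that comparison became 0.114 with TMM. MIR173 in rdr6-11 over Col-0 became 0.852 with miRNA reads, 0.906 without organelle, rRNA and tRNA loci and 0.689 without TAS loci. For the triple over the double mutant, scaling to miRNA reads gave 0.0340 for the TAS sum and 3.46 for MIR173, and leaving out organelle, rRNA and tRNA loci gave 0.0298 and 3.03. For the triple mutant over rdr6-11, the TAS sum became 6.39 with miRNA reads. MIR173 became 0.333 with median of ratios, 0.318 with TMM, 0.556 with miRNA reads and 0.449 without organelle, rRNA and tRNA loci. For the triple mutant over Col-0, those 4 settings gave 0.00569, 0.00547, 0.0112 and 0.00964 for the TAS sum, and 0.2399, 0.231, 0.474 and 0.407 for MIR173.

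Of 5 loci 1 was called in the double mutant over Col-0, and 3 with TMM (TAS1A and TAS2 added), 5 at a fold of 2 and 0 at a fold of 8. In the triple mutant over rdr6-11 it was 1 (TAS2), and 2 with miRNA reads, 2 without organelle, rRNA and tRNA loci (TAS1C added) and 2 at a minimum of 20 reads (TAS1B added). At a fold of 2 it was 3, with TAS1C higher and MIR173 lower added, and at a fold of 8 it was 0. In the triple mutant over Col-0 the count was 4, and 5 with median of ratios, with TMM and at a fold of 2 (MIR173 added). Of all 55 such counts 47 stayed within 1.5 times. The cause of these shifts was not tested. Per length, 6 of 16 locus shares left their intervals. No paired analysis was possible because each genotype has 1 library. Summed TAS folds that use rdr6-11 rest on its 79 reads.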
